A study of Mus musculus with 61 samples.

Results

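The windows described here are 9045 distal stretches of the mouse genome, each 1000 bp long, that entered the deposited H3K27ac table of brain microglia only through the peak list named for Sall1 enhancer knockout (EKO) cells. Every row of that table carries a text naming the list or lists it was merged from, and a window was kept when this text named the EKO list and no other and when its distance to the nearest annotated transcription start site (TSS) was above 3000 bp. These lists were read as reproducible open-chromatin (ATAC-seq) peaks of wild-type (WT) and EKO microglia. That reading is an inference from the study's methods and from list names that give SALL1 and a genotype. The 9045 windows, called EKO-list windows below, make up 6.79% of the 133129 windows in the table and 9.73% of its 92940 distal windows. They were compared with 23427 distal windows from the WT list alone (WT-list windows) and 60468 distal windows on both lists (shared windows). Because the windows were selected on open chromatin of the same genotypes, their H3K27ac difference between EKO and WT is given as a description beside the value for all windows, and no test set the list against other windows. Shares over the list were compared between genotypes only over libraries, by exact permutation.

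H3K27ac is acetylation of lysine on histone H3 and marks active enhancers and promoters. Distal enhancers are short open stretches where sequence-specific factors bind, often with PU.1, the lineage factor of macrophages, and their acetylation usually moves with the activity of nearby genes. SALL1 is a zinc finger factor that among brain-resident myeloid cells is restricted to microglia. SMAD4 is the common partner of the receptor-activated SMAD proteins downstream of TGF-β, a cytokine that microglia need to keep their identity, and p300 is an acetyltransferase that deposits H3K27ac.

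WT mice were C57BL/6J, EKO mice carried a homozygous CRISPR deletion of part of a Sall1 super-enhancer, and the labels give the strain of both as C57/Bl6. Both were adult males. H3K27ac was measured by ChIP-seq in 2 WT and 2 EKO libraries of microglia fixed with formaldehyde after staining and sorted as DAPI-negative CD11b+ CD45low CX3CR1+ cells, and in WT and EKO nuclei sorted as PU1, NeuN or Olig2 positive. Peak lists were available for SALL1 in WT, EKO, PWK and Spret microglia and for p300 in WT. The p300 list pools 1 library titled microglia and 2 titled PU1+ nuclei. SMAD4 lists came from WT microglia and from a mutant whose labels disagree. Its title and genotype name a Smad4 conditional knockout, in which Cx3cr1-driven CreER removes floxed Smad4 after tamoxifen. The description and the titles of the matching inputs name EKO, and the study describes SMAD4 ChIP-seq of EKO microglia. This mutant is called the labelled mutant here. Nothing in the labels says whether libraries of 1 genotype came from separate animals, so p-values measure the spread between libraries, which may be technical. Of the 9045 windows, 7081 (78.3%) lay more than 10000 bp from a TSS.

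Library depth, recovered from the steps of the deposited values, ran from 9963452 to 24357814 tags. The tags in all windows summed to between 33.2% and 97.2% of depth (windows overlap), and the first EKO library, at the top of that range, stood apart from the others, so values were also compared after quantile normalization and without each library in turn. The deletion was visible at its target. All 65 windows nearest to Sall1 named the WT list alone, and of 29 that could be tested all 29 were lower in EKO, with medians of 94.8 and 43.8 tags in WT and 5.02 and 2.24 tags in EKO. Border macrophage marker genes, by contrast, carried more H3K27ac at their start sites in EKO: summed over the 14 of 19 genes with a window there, 278 and 191 tags in WT and 1355 and 503 tags in EKO, with 7 of 12 tested genes gaining (Cd38, Clec12a, Cp, Cybb, Mrc1, Ms4a7 and Pf4) and Cd38 at 0 in both WT libraries. The part of such cells in the results below was not tested. Start sites of homeostatic microglia genes kept high levels in every library (medians of 81.7, 61.7, 118 and 38.1 tags in WT 1, WT 2, EKO 1 and EKO 2), with 4 of 28 tested genes losing (Adgrg1, Gpr165, Nav3 and Sall1) and 0 gaining.

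Sequence was read at the centres of 8 windows with the largest gains, and 5 of these 8 (1700021F07Rik, Gm9733, Tex10, Majin and Runx3) hold none of the binding-site letters listed below. Shown are the 3 that hold some (Cyr61, Trmt5 and Dppa3), chosen for those letters, and 2 that hold none, the window with the largest change (1700021F07Rik) and the most GC-rich (Runx3, at 76.5%). Each is the central 200 bp of its window, read 5′ to 3′ on the forward strand of the reference genome (GRCm38.p6, the build called mm10). Capitals mark matches on either strand to AP-1 (TGANTCA), C/EBP (TTGCNNAA), PU.1 (GAGGAAGT), PU.1:IRF (GGAANNGAA), IRF (GAAANNGAA), MiT/TFE (TCACGTG), MEF2 (TATTTNTAG) and RUNX (TGTGGTT). The PU.1:IRF and IRF letters can overlap. A match is a string of letters, not a measured binding site.
1700021F07Rik, chr2:173432301-173432500: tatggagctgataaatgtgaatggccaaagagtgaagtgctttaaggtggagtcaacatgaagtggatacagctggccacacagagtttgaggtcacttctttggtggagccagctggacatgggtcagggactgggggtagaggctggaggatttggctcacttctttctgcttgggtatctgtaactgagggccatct
Cyr61, chr3:145692104-145692303: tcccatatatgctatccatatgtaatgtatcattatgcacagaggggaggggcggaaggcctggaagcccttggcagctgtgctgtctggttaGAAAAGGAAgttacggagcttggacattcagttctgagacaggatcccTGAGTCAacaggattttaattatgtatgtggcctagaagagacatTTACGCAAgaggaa
Trmt5, chr12:73205636-73205835: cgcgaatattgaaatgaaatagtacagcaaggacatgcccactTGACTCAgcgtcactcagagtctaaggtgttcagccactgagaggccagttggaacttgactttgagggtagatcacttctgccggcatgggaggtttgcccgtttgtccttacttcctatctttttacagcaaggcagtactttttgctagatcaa
Dppa3, chr6:122658551-122658750: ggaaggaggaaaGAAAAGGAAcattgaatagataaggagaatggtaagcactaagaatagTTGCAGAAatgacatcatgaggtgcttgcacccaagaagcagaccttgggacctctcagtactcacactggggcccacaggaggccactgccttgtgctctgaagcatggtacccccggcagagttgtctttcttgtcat
Runx3, chr4:135152372-135152571: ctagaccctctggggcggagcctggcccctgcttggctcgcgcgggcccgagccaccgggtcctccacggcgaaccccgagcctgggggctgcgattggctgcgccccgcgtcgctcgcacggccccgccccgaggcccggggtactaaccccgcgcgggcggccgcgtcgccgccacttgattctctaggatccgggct

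EKO-list windows carried little H3K27ac in WT microglia, and in EKO microglia their median was near that of shared windows. The median window had 4.93 and 3.98 normalized tags (tags per 1e+07 tags of a library) in the WT libraries and 16.1 and 6.72 in the EKO libraries. The first EKO library was the highest, but it was high everywhere, so each library is best read against its own shared windows: the median EKO-list window reached 54.6% and 50% of the median shared window in WT and 88.9% and 90% in EKO. WT-list windows moved the other way, from 63.7% and 62.6% in WT to 50% and 49.9% in EKO. This closeness holds for the medians only. The upper quartile of EKO-list windows was 34.1 and 13.4 tags in EKO, below the 54.2 and 20.2 tags of shared windows. Measured as a share of all tags in windows, EKO-list windows held 2.00% and 2.13% in WT and 3.40% and 3.61% in EKO, a ratio of 1.70 (exact two-sided permutation test, p = 0.333, the smallest that 2 against 2 libraries allow). The same ratio was 0.794 for WT-list windows and 0.967 for shared windows. The genotypes did not overlap in the share.

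Many EKO-list windows were weak in every library. In all, 4433 (49.0%) had 16 tags or fewer in all 4 libraries, and 654 (7.23%) had more than 16 in all 4. A further 921 (10.2%) had more than 16 tags in both EKO libraries and in neither WT library, and 9 (0.0995%) showed the reverse. Per library, 11.1% and 9.52% of EKO-list windows in WT and 50.3% and 19.6% in EKO were above 16 tags. Over all distal windows these shares were 29.5% and 26.1% in WT and 47.3% and 23.4% in EKO. The first EKO library was high everywhere and these counts were not made for other windows, so nothing is read from them. At the distance limit of the rule the levels did not step: windows from 2500 to 3000 bp from a TSS (173 windows, outside the rule) had medians of 5.34, 4.98, 18.1 and 8.96 tags in WT 1, WT 2, EKO 1 and EKO 2, and those from 3000 to 3500 bp (159 windows, inside) had 5.75, 3.98, 20.1 and 7.47.

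**Figure D1:**
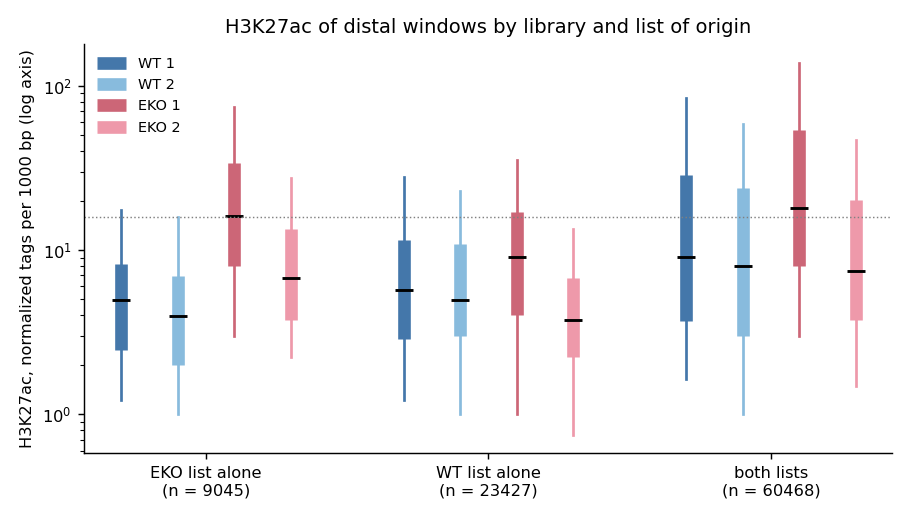
H3K27ac level (normalized tags per window, log axis) in each of the 4 libraries for distal EKO-list, WT-list and shared windows, where black marks are medians, thick bars the interquartile range over windows, thin lines the range from the lowest to the highest decile limit and the dotted line 16 tags. The median EKO-list window lies below the median shared window in both WT libraries (4.93 and 3.98 against 9.03 and 7.96 tags). In both EKO libraries it lies close to it (16.1 and 6.72 against 18.1 and 7.47 tags), while the upper quartile stays lower in all 4 libraries.

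Differences were tested window by window with limma on quantile-normalized log2(tags + 1) values over all windows whose mean over the 4 libraries was above 16 deposited tags, and a window was said to gain or lose H3K27ac when its Benjamini-Hochberg adjusted p was below 0.05 and its change above 2-fold. Only 2166 EKO-list windows (23.9%) passed the level filter, which a window high in the first EKO library alone can pass, and 6879 were not tested. Of those tested, 964 (44.5%) gained and 30 (1.39%) lost. The background was 9.22% gaining and 7.23% losing over all tested windows, and 12.3% gaining and 10.5% losing over the 30698 tested distal windows. The rule used a related contrast, so nothing is read from this excess. On the values as deposited, without quantile normalization, 158 EKO-list windows gained and 0 lost (787 and 1 at an unadjusted p under 0.05), against a background of 0.814% gaining and 0.128% losing. The fit depended on single libraries: without the first EKO or the first WT library limma called 0 in each direction, while 879 and 1056 windows were higher in EKO at an unadjusted p under 0.05. The edgeR quasi-likelihood test on the recovered tags called 815 and 826 gaining EKO-list windows in the same subsets, against 7.98% and 7.95% of all tested windows, and 1098 with all 4 libraries, against 10.6%.

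Over all 9045 windows, tested or not, the median log2 change (EKO over WT) was 0.59, with the middle of the distribution between -0.07 and 1.35, and 6561 (72.5%) were above 0. The median was -0.30 in WT-list windows, -0.06 in shared windows and -0.03 in all windows. Gains were most frequent at moderate levels. Of the windows with a mean of 16 to 32 tags 44.6% gained, from 32 to 64 tags 51.0% did and from 64 to 128 tags 43.8% did, while above 128 tags the share was 23.4% (37 of 158). The background shares in the same bins were 10.5%, 11.9%, 8.79% and 4.17%.

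**Figure D2:**
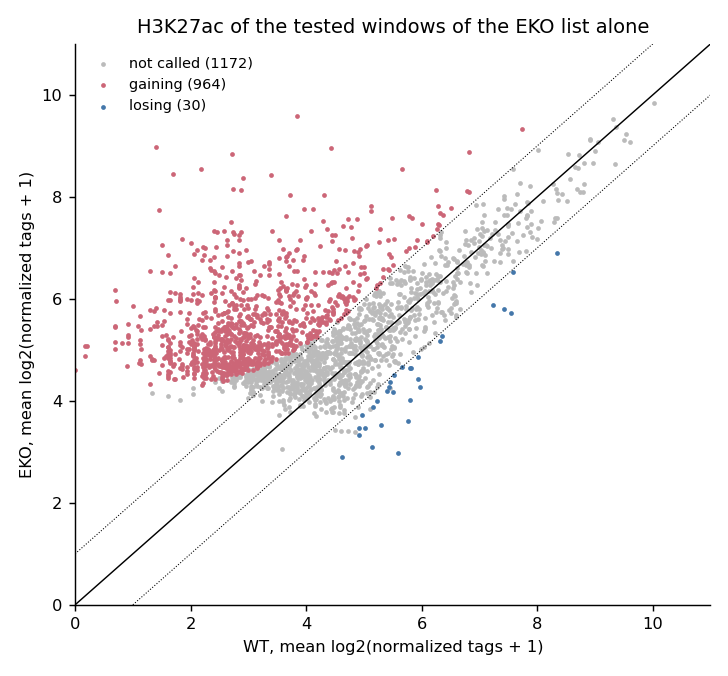
Mean H3K27ac level of each tested distal EKO-list window in WT (x axis) and EKO (y axis) microglia, as mean log2(quantile-normalized tags + 1), with gaining and losing windows coloured, a solid line for equal levels and dotted lines for 2-fold differences. The 964 gaining windows lie above the diagonal and the 30 losing ones below it.

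The windows with the largest gains went, in all but the Tex10 window, from under 10 tags in both WT libraries to 39.6 tags or more in both EKO libraries. An intergenic window 90192 bp from 1700021F07Rik (chr2:173431900-173432900) had 1.64 and 1.00 tags in WT and 949 and 323 tags in EKO, and rose by 7.58 ± 0.31 on the log2 scale (limma with its SE, adjusted p = 5.03e-13). One nearest to Tex10 (chr4:48419271-48420271), which encodes a component of a ribosome maturation complex, rose from 19.3 and 6.97 to 1672 and 437 tags. The window nearest to Cyr61 (chr3:145691703-145692703), a secreted matrix protein and target of the Hippo pathway, rose from 4.52 and 4.98 to 1013 and 253 tags. In all of them the genotypes were far apart, and the first EKO library was the higher of the EKO pair.

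The window nearest to Dppa3 (chr6:122658150-122659150), a gene known from germ cells and early embryos, rose from 2.87 and 7.96 to 542 and 177 tags. An intronic window of Runx3 (chr4:135151971-135152971), a factor of lymphoid and some myeloid lineages, rose from 1.64 and 2.99 to 284 and 85.1 tags. At both loci the EKO libraries lay far above the WT libraries. Gm9733 (chr3:15285099-15286099) rose from 5.75 and 0 to 402 and 135 tags, and Majin (chr19:6189011-6190011), a telomere attachment gene of meiosis, from 0.82 and 3.98 to 255 and 79.9 tags. The others were an intronic window of Sash1 (chr10:8870139-8871139; 0 and 3.98 tags in WT, 207 and 50 in EKO, a call lost with DESeq2), a window nearest to Serpinb1c (chr13:32928767-32929767; 1.23 and 1.99 in WT, 222 and 70.2 in EKO) and one nearest to Trmt5 (chr12:73205235-73206235; 1.23 and 0 in WT, 157 and 39.6 in EKO). The WT libraries held only 3 recovered tags in the Trmt5 window, so its ratio of 103 has a counting interval from 34.6 to 502, for counting error only.

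Losses were fewer and smaller. The 5 largest were near Mir99b, Map4k4, Gm3383, Plcl1 and Sept9. The window near Mir99b, a microRNA gene (chr17:17826409-17827409), had 42.7 and 41.8 tags in WT and 6.02 and 8.96 in EKO and fell by 2.62 ± 0.50 on the log2 scale (SE, limma, adjusted p = 0.000429). The intronic window of Map4k4, a kinase of stress signalling (chr1:39982770-39983770), had 55 and 42.8 tags in WT and 20.1 and 8.21 in EKO. The highest in level was an intronic window of Plcl1 (chr1:55506426-55507426), with 189 and 154 tags in WT and 119 and 27.6 in EKO. In these windows, read as open in EKO alone, both WT libraries lay above both EKO libraries. None of the 5 was called on values as deposited.

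**Figure D3:**
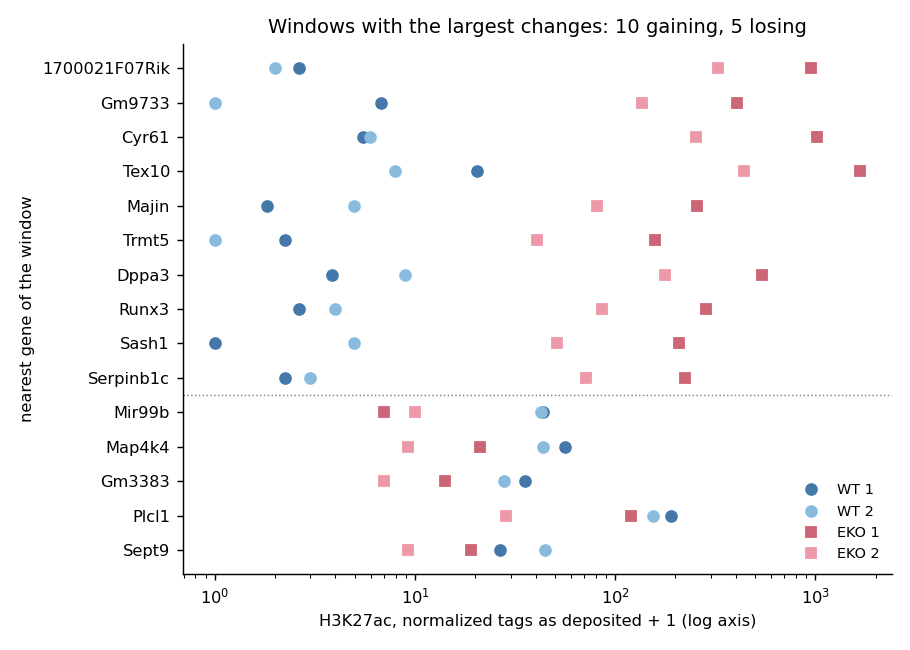
H3K27ac (normalized tags + 1, log axis) in each WT and EKO library at the 10 EKO-list windows with the largest gains and the 5 with the largest losses. At the gaining windows both EKO libraries lie above both WT libraries, from 1.64 and 1.00 to 949 and 323 tags at the 1700021F07Rik window.

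The gaining windows were spread over 20 chromosomes and merged into 837 separate stretches, and 661 genes were nearest to at least 1 of them, 173 to 2 or more and 62 to 3 or more. Windows overlap, so those of 1 gene are not separate observations. Cmah, which encodes the enzyme that hydroxylates the sialic acid Neu5Ac, had 22 EKO-list windows, of which 13 could be tested and all 13 gained (log2 changes from 1.84 to 4.39). Sash1, a scaffold protein of endothelial and immune signalling, had 33, with 9 of 10 tested gaining. Trps1, a GATA-type repressor, had the most windows of any gene at 44, with all 6 tested gaining and medians over its windows of 4.11 and 1.99 tags in WT and 19.1 and 7.10 tags in EKO. Pmepa1, a TGF-β target that dampens SMAD signalling, had 23, with 12 of 21 tested gaining, and Rftn1, a lipid raft protein, had 22, with 5 of 7 gaining.

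The remaining genes with the most gaining windows were 1700021F07Rik (7 of 8 tested), Gm9733 (7 of 7), 9330111N05Rik (6 of 6), Cenpf (6 of 6), Trmt5 (6 of 6) and Dppa3 (5 of 5). Several of these names share a locus. Pmepa1, Zbp1 and 1700021F07Rik windows lie on 1 stretch of chromosome 2, and the largest group of EKO-list windows, 36 of them with gaps of 10000 bp or less, spanned chr2:173221664-173270184 between Pmepa1 and Zbp1 (27 tested, 11 gaining). The Trmt5 window lies beside one assigned to Mnat1 (chr12:73201798-73202798), with 27.9 and 11.9 tags in WT and 1008 and 301 tags in EKO, a rise of 4.54 ± 0.25 on the log2 scale (limma with its SE, adjusted p = 9.18e-12). At Cmah, 11 windows formed a group over chr13:24392337-24403749 and all 11 gained. Nearest-gene names are therefore labels of position and not measured targets.

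Gene lists were compiled for microglial and macrophage biology, and each is described by its EKO-list windows, with 44.5% gaining as the value over all tested EKO-list windows. Among lipid and apolipoprotein genes 15 of 49 windows could be tested, 8 gained and 0 lost. They include Acsl1, a fatty acid-activating enzyme, whose strongest window (chr8:46431951-46432951) rose from 3.69 and 0 to 116 and 26.1 tags (log2 4.53 ± 0.77), and Abca1, the cholesterol exporter, whose intronic window (chr4:53123678-53124678) rose from 18.1 and 4.98 to 74.3 and 43.3 tags. Npc2 and Soat1, which handle lysosomal and esterified cholesterol, each had 1 window, and both gained. Of the disease-associated microglia genes 11 of 42 windows were tested and 4 gained, 3 of them at Ch25h, the cholesterol 25-hydroxylase (chr19:34420151-34421151; 14.4 and 11 tags in WT, 90.3 and 39.6 in EKO), and 1 at Cadm1.

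Border macrophage genes had the largest share of EKO-list windows among the lists: 49 windows, 48.0% of all distal windows nearest to them, against 9.73% in the whole table. Of 17 tested, 16 gained and 0 lost. Ms4a7, a membrane protein of macrophages outside the parenchyma, gained in 4 of 4 tested windows, the strongest in its 3′ UTR (chr19:11320739-11321739; 4.11 and 3.98 tags in WT, 167 and 40.3 in EKO, log2 3.67 ± 0.43). The NADPH oxidase subunit gene Cybb (chrX:9473468-9474468) rose from 6.98 and 4.98 to 143 and 26.9 tags and ceruloplasmin, Cp, (chr3:19953137-19954137) from 22.6 and 21.9 to 182 and 54.5 tags. Cd38, an NAD-consuming ectoenzyme, gained in 2 of 2. The start-site values of the same list, given above, were higher in EKO too. The sort kept cells with low CD45, a gate meant to leave out CD45-high border macrophages. In sorted bulk cells, more cells of a type and more H3K27ac per cell cannot be told apart.

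Monocyte genes had 19 windows (26.8% of their distal windows), with 4 of 5 tested gaining, 3 at Itga4 (integrin α4) and 1 at Ccr2, the receptor for Ccl2 (a call lost with DESeq2). At their start sites the monocyte list summed to 69.0 and 66.7 tags in WT and 649 and 208 in EKO, but Itga4 alone made up most of each sum in EKO (600.2 and 179.95 tags there, against 39.8 and 21.9 in WT), and the medians over the 6 genes with a window, 2.05 and 6.97 tags in WT and 10.5 and 3.36 in EKO, overlapped. RNA-seq in the study found no expression of Ccr2 or Lgals3 in WT or EKO microglia and no change of Sall3. The part of monocytes in the result was not tested. Homeostatic microglia genes had 39 windows, only 6.06% of their distal windows, and 1 of 21 tested gained, at Tgfbr1. Their median log2 change was 0.08. The low share of EKO-list windows beside homeostatic genes and the high share beside border macrophage genes are descriptions, since the lists were drawn up with earlier results of these data known.

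Among cytokine and innate activation genes 6 of 11 tested windows gained, of 41. They include windows of Ccl2, the monocyte chemoattractant (chr11:82006747-82007747; 13.6 and 8.96 tags in WT, 183 and 74.7 in EKO, log2 2.99 ± 0.31), of Cxcl16, of the complement receptor gene C3ar1 and of Nfkbia, the inhibitor of NF-κB. Interferon response genes gained in 1 of 10 tested windows, at Zbp1, a nucleic acid sensor, although 27 EKO-list windows lay beside them. In the cell adhesion and migration list 8 of 15 tested windows gained, of 51, among them windows of the chemokine receptor gene Cxcr4 (chr1:128712103-128713103; 0.82 and 1.99 tags in WT, 68.3 and 29.9 in EKO), Itgav and Ccr1. None of these 3 lists had a losing window.

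For the TGF-β pathway 18 of 56 windows were tested, 6 gained and 1 lost. Bambi, a pseudoreceptor that blocks TGF-β signalling, gained in 4 of 5 (its strongest window had 4.52 and 5.97 tags in WT and 292 and 79.9 in EKO, log2 4.31 ± 0.35), and Skil, a corepressor of SMAD proteins, gained in 1 of 2. The receptor genes differed. A Tgfbr1 window rose from 6.16 and 3.98 to 40.2 and 21.7 tags, and a Tgfbr2 window (chr9:116098900-116099900) fell from 46.0 and 35.8 to 29.1 and 20.2 tags, by 1.02 ± 0.36 on the log2 scale (limma, adjusted p = 0.0385), a call lost with DESeq2.

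Transcription factor genes were mixed. Runx genes had 22 windows and 4 of 5 tested gained, 3 of them at Runx2 (chr17:44662887-44663887; 13.6 and 5.97 tags in WT, 210 and 111 in EKO, log2 3.62 ± 0.34). AP-1 genes had 17 and 3 of 7 tested gained, all at Fosl2 (chr5:32139094-32140094; 5.34 and 4.98 tags in WT, 162 and 41.1 in EKO, log2 3.40 ± 0.40). For Maf genes 0 of 4 tested windows gained and for MiT/TFE genes 0 of 1, while none of the 2 C/EBP windows and none of the 5 antigen presentation windows could be tested. Of the gaining list windows given with values, those of Acsl1, Ms4a7, Bambi, Runx2 and Fosl2 were also called on values as deposited, and the others were not. Markers of neurons and oligodendrocytes had 3 and 2 windows, astrocyte markers 0, and lymphocyte markers 2, of which 1 at Ms4a1 gained.

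By position, EKO-list windows were mainly intronic (49.5%) or intergenic (45.9%). Their median distance to a TSS was 28092 bp, against 26895 bp for WT-list and 22637 bp for shared windows. They contained fewer CpG islands (0.365%, against 0.747% and 1.54%) and more LINE elements (6.58%, against 4.49% and 3.89%) than WT-list and shared windows by the table's annotation, LTR elements made up 7.98%, against 11.7% and 8.52%, and their median GC content was 43.3%, against 46.3% in both other classes. Of them, 6555 (72.5%) overlapped no window of the other classes, 2325 (25.7%) overlapped a shared window and 320 (3.54%) a WT-list window. Most were isolated: joining windows with gaps of 10000 bp or less left 6716 groups, of which 90 had 5 or more windows and 12 had 10 or more.

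The peak lists used here held 15410 peaks for SALL1, 4024 for SMAD4 and 9177 for p300 in WT and 2333 for the labelled-mutant SMAD4. For WT SALL1 and WT SMAD4 these are fewer peaks than the study describes, so a window without a peak here is only a window without one in these lists. SALL1 peaks of WT microglia overlapped 587 EKO-list windows (6.49%), the same share as in WT-list windows (6.49%) and less than in shared windows (20.5%). In EKO-list windows only 37.1% of these overlaps reached the central 200 bp, against 78.8% in shared windows. No EKO-list window held any of the 7 peaks of the EKO SALL1 list. H3K27ac in the 587 windows with a WT SALL1 peak was higher in all libraries (medians of 21.8 and 17.9 tags in WT, 60.2 and 22.4 in EKO) than in the 8458 without one (4.52, 3.98, 15.1 and 6.72). Of the tested windows, 96 of 437 (22%) with a SALL1 peak gained and 10 lost, and 868 of 1729 (50.2%) without one gained and 20 lost. The windows with a SALL1 peak started higher in WT, and the difference between the shares was not tested.

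The 5 EKO-list windows with the strongest SALL1 peaks were nearest to Ppp1r21, Hpgd, Scel, Ccr1 and P2ry13, and none of them was called. None of these 5 peaks reached the central 200 bp of its window. Those at Ppp1r21, Hpgd and Ccr1 crossed the window's edge, so they may belong to an adjacent site. The Ppp1r21 window (chr17:88551548-88552548) had 66.1 and 47.8 tags in WT and 114 and 47.0 in EKO (log2 0.13 ± 0.25). The Ccr1 window (chr9:123932064-123933064), beside a chemokine receptor gene, had 231 and 135 tags in WT and 217 and 62.0 in EKO (log2 -0.84 ± 0.18, limma, adjusted p = 0.00145, below the 2-fold limit), and the Hpgd window (chr8:56313790-56314790), beside the gene of the main prostaglandin-degrading enzyme, had a log2 change of -0.91 ± 0.30. The purinergic receptor gene P2ry13, a homeostatic microglia gene, had a window (chr3:59228836-59229836) with 101 and 71.7 tags in WT and 177 and 43.3 in EKO (log2 -0.21 ± 0.23). These windows were already acetylated in WT.

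WT SMAD4 peaks overlapped 112 EKO-list windows (1.24%, against 1.68% of WT-list and 6.0% of shared windows). WT p300 peaks overlapped 223 (2.47%, against 3.29% and 11.3%). The labelled-mutant SMAD4 peaks overlapped 137 (1.51%), against 0.696% of WT-list and 3.45% of shared windows. In these lists 8280 windows (91.5%) held none of the 4 kinds of peak, SALL1 in WT included. The 94 windows with a labelled-mutant and no WT SMAD4 peak had medians of 9.03 and 8.46 tags in WT and 112 and 40.7 in EKO, and 49 of 75 tested gained. The 69 with a WT and no labelled-mutant peak had medians of 59.9, 43.8, 119 and 35.8, and 5 of 67 tested gained and 2 lost. With neither SMAD4 peak, 902 of 1981 tested EKO-list windows gained (45.5%). Over all distal windows with a labelled-mutant peak, with or without a WT peak, 279 of 2269 tested gained. The groups differed in WT level from the start, and the difference between the shares was not tested.

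The strongest labelled-mutant SMAD4 peaks without a WT peak overlapped the 1700021F07Rik window already described, a Dppa3 window (chr6:122657884-122658884) that overlaps the one described, and the Mnat1 window. They also overlapped windows of 1700020N01Rik (chr10:21609997-21610997) and Coro6 (chr11:77441906-77442906). Each of these peaks crossed an edge of its window and none reached its central 200 bp. The 1700020N01Rik peak (chr10:21609582-21609998) barely entered its window. The 1700021F07Rik peak had a score of 411 in the deposited list, and its window had the largest H3K27ac gain. The 1700020N01Rik window (228 and 132 tags in WT, 290 and 97.1 in EKO, log2 -0.28 ± 0.17) and the Coro6 window (264 and 161, 375 and 123, log2 -0.19 ± 0.15) were acetylated in both genotypes and were not called.

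A split made after these values were seen separates windows that stand alone from those that touch a window of another class. Among the 6555 EKO-list windows that overlapped no other class, 139 (2.12%) held a WT SALL1 peak, 22 (0.336%) a p300 peak, 35 (0.534%) a labelled-mutant SMAD4 peak and 0 a WT SMAD4 peak (3 counts would be 0.0458%). All 112 EKO-list windows with a WT SMAD4 peak thus touched another class. EKO-list windows standing alone overlap no window that names the WT list. This choice by itself favours few peaks of WT factors, so nothing is read from the 0 or the low shares. Of the 17568 WT-list windows that stood alone, 471 (2.68%) held a SALL1 peak, 73 (0.416%) a WT SMAD4 peak, 4 (0.0228%) a labelled-mutant SMAD4 peak and 207 (1.18%) a p300 peak. The 51382 shared windows that stood alone had more of every kind: 19.4% held a SALL1 peak, 5.52% a WT SMAD4 peak, 3.18% a labelled-mutant SMAD4 peak and 10.5% a p300 peak. Of the EKO-list windows that stood alone 861 could be tested, and 534 gained and 2 lost. Of the WT-list windows 1097 could be tested, with 15 gaining and 310 losing, and of the shared windows 19604, with 2077 gaining and 1740 losing. The split follows the lists of the same genotypes, which by itself favours these directions, so nothing is read from the calls either.

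H3K27ac of sorted nuclei comes from other libraries than those above, although the genotypes are the same. The first PU1 WT list was short (11149 regions, against 36057 in the second WT list and 25990 and 26029 in the EKO lists), so each library is given on its own. PU1 regions covered 6.12% and 23.0% of EKO-list windows in WT nuclei and 38.7% and 35.7% in EKO nuclei, a mean of 14.5% ± 11.9 (SD, n = 2) against 37.2% ± 2.13 (SD, n = 2; exact two-sided permutation test, p = 0.333, the smallest possible). Both EKO lists were above both WT lists. Shared windows gave 20.3% and 48.3% in WT and 43.9% and 41.4% in EKO, and WT-list windows 9.53% and 31.3% in WT and 17.6% and 16.3% in EKO, so for both of these the groups overlapped (same exact permutation test, p = 1). To set the length of the lists aside, EKO-list windows were counted per 100 covered distal windows and made up 3.68 and 5.38 in WT and 10.3 and 10.1 in EKO. Without the short WT list the difference between EKO and WT nuclei was 14.2 percentage points.

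In NeuN nuclei, mainly neurons, 12.5% and 13% of EKO-list windows were covered in WT and 14.7% and 12.6% in EKO, and in Olig2 nuclei, of the oligodendrocyte lineage, 10.2% and 10.9% in WT and 11.2% and 10.2% in EKO. These overlapped. In PU1 nuclei, 1255 EKO-list windows (13.9%) were covered in both EKO lists and neither WT list, against 3.98% of all distal windows, and 2 (0.0221%) showed the reverse, against 0.582%. The same pattern was found in 172 WT-list windows (0.734%) and 2276 shared windows (3.76%). Of the windows that gained H3K27ac in sorted cells, 96.1% and 91.7% were covered in the EKO PU1 lists and 5.71% and 43.8% in the WT PU1 lists, and 460 (47.7%) were covered in both EKO and no WT list. The 1172 windows tested and not called were also mostly covered in EKO nuclei, at 86.4% and 83.1%, and in WT nuclei at 38.2% and 78.8%. Both EKO lists and no WT list covered 113 of them (9.64%) and 682 (9.91%) of the windows not tested. Gaining windows were chosen by H3K27ac of the same genotypes, so nothing is read from their higher share.

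All of the 10 windows with the largest gains had regions in both EKO PU1 lists, none had one in the first WT list, and 4 (1700021F07Rik, Gm9733, Cyr61 and Dppa3) had one in the second. Levels in these regions, which are longer than the windows, were 0 and 17.5 tags in WT and 3471 and 2632 in EKO at 1700021F07Rik and 0 and 33.3 in WT and 3285 and 2187 in EKO at Dppa3. None of the 10 was covered in NeuN or Olig2 nuclei. All 11 windows of the Cmah group were covered in both EKO and neither WT list of PU1 nuclei.

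**Figure D4:**
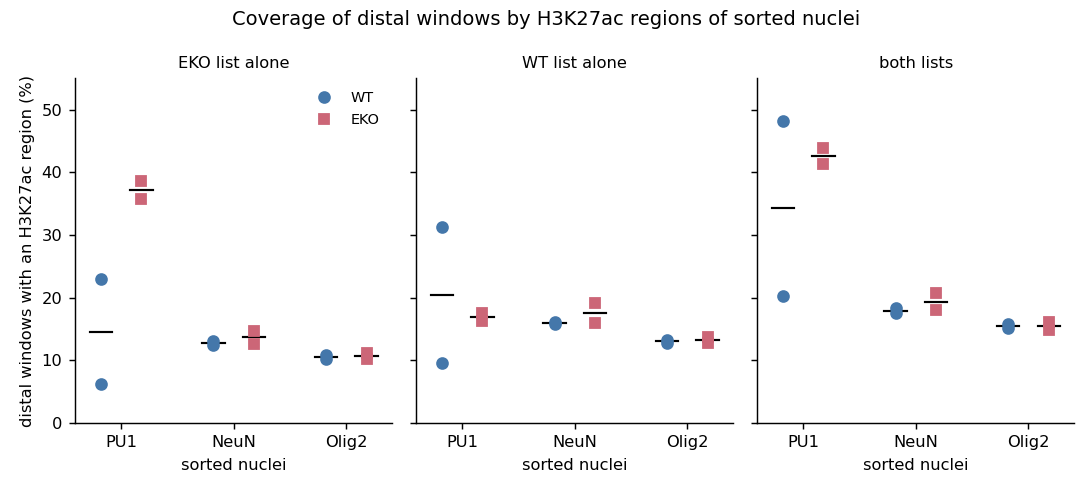
Percentage of distal EKO-list, WT-list and shared windows covered by H3K27ac regions in each library of PU1, NeuN and Olig2 nuclei (points are libraries, black lines means). In PU1 nuclei EKO-list windows rise from 6.12% and 23.0% in WT to 38.7% and 35.7% in EKO, while in NeuN and Olig2 nuclei all libraries lie between 10.2% and 14.7%.

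The sequence of the EKO-list windows was read at 9034 of them (11 lie on unplaced sequences). In the central 200 bp, C/EBP letters occurred in 16.2% of EKO-list windows, against 7.91% of WT-list windows, 10.4% of shared windows and 9.37% of all windows in the table. The AP-1 letters occurred in 10.7%, 7.86%, 8.85% and 7.64%, the RUNX letters in 8.29%, 5.21%, 6.56% and 5.55%, and the MEF2 letters in 2.18%, 0.99%, 1.26% and 1.08%, in the same order. IRF letters were in 11.1%, 8.23%, 9.07% and 7.98% and PU.1:IRF letters in 12.5%, 9.55%, 11.5% and 9.71%. These motifs, of factors known from inflammatory and lineage-driven activation of macrophages, were each more frequent in EKO-list windows than in the other classes.

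Other motifs were less frequent in EKO-list windows. PU.1 letters occurred in 9.01%, 11%, 11.7% and 9.34%, the SMAD letters (GTCTGG) in 11%, 13.7%, 13.6% and 13.3%, the CTCF letters (CCANNAGNG) in 12.7%, 17.8%, 19.7% and 17.6%, and the MiT/TFE letters in 1.56%, 1.87%, 1.93% and 2.20%, again in the order EKO-list, WT-list, shared and all windows. EKO-list windows had the lower GC content given above, and its part in these shares was not tested. In the sequences shown, capitals leave out the SMAD and CTCF letters, and the Cyr61 centre also holds the SMAD letters GTCTGG in lower case. Of the letters marked there, the Cyr61 centre holds AP-1, C/EBP and IRF letters and the Trmt5 centre AP-1 letters. The Dppa3 centre holds C/EBP and IRF letters, while the centre of the window with the largest gain holds none of the marked letters.

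**Figure D5:**
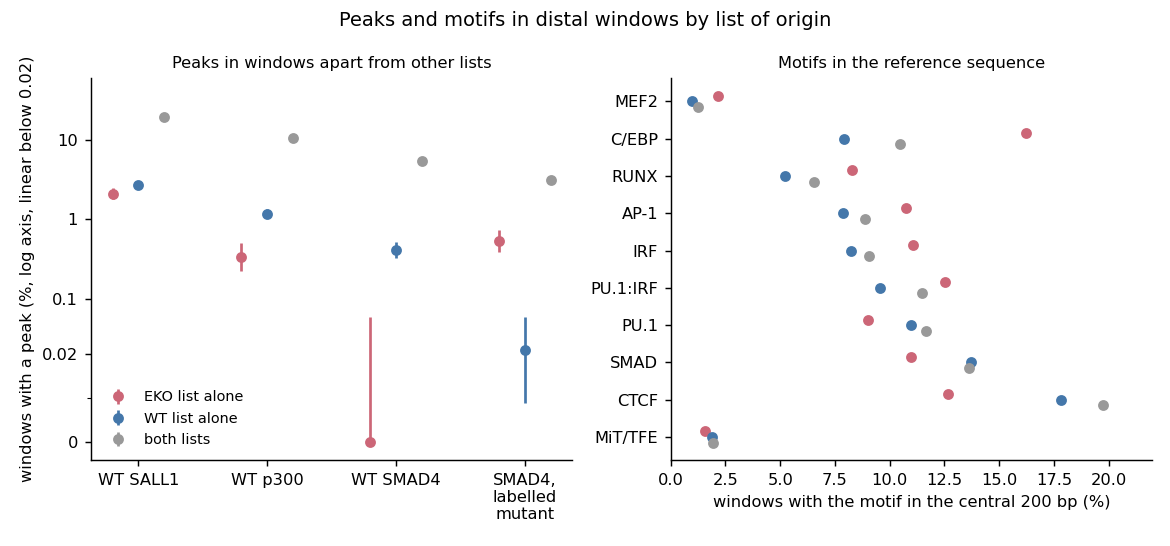
Left, percentage of distal windows standing apart from other lists that overlap a WT SALL1, WT p300, WT SMAD4 or labelled-mutant SMAD4 peak, with 95% Wilson intervals for counting error only, on a log axis that is linear near 0; right, percentage of all distal windows of each list whose central 200 bp hold each motif. Of the EKO-list windows standing alone 2.12% had a SALL1 peak and 0 a WT SMAD4 peak, and C/EBP letters occurred in 16.2% of EKO-list, 7.91% of WT-list and 10.4% of shared windows. Standing alone leaves out EKO-list windows that overlap a window naming the WT list, which favours few WT peaks.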

How the data were processed

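H3K27ac, SALL1 and SMAD4 ChIP-seq of WT and mutant mouse microglia and H3K27ac of sorted nuclei were used. The p300 ChIP-seq came from WT microglia and WT PU1 nuclei. Per the submitters' processing notes and the methods, the authors aligned reads to mm10 with Bowtie2, called peaks with HOMER, kept reproducible peaks by IDR, and annotated tags in 1000 bp windows. The deposited microglia table holds normalized tags, a signal scaled by the authors to 1e+07 tags per library. 100% of its values gave whole tags within 0.05 tags at the recovered depths. The deposited peak lists hold a score per peak, and the nuclei lists give normalized tag counts, a signal per region.

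The design foresaw normalized tags, so limma 3.58.1 (R 4.3.3) was the main test, on quantile-normalized log2(tags + 1), with windows of a mean above 16 tags and calls at adjusted p below 0.05 and fold above 2, fitted on the whole table and adjusted over all tested windows. Fold changes are on that log2 scale and understate low windows. edgeR 4.0.16 and DESeq2 1.42.0 on recovered tags were alternatives. With edgeR 1098 EKO-list windows gained, against 10.6% of all tested windows. Overlaps needed 1 bp. Peak lists pool the libraries of a group, so they carry no replicate error. The limma and edgeR fits were tested on simulated data.

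The members and lists were chosen with earlier results of these data known. Named windows were the 10 largest gains (at most 1 per gene, EKO libraries above WT), the 5 largest losses, the 10 genes with most gaining windows, the 5 with most windows, up to 4 genes per list, and the 5 highest SALL1 and the 5 highest labelled-mutant SMAD4 peaks. Sequence came from GRCm38.p6 (21 of 21 chromosomes held all windows). With 2 libraries per genotype an exact test cannot go below p = 0.333. Replicate libraries differed by more than counting noise (chi-square per window 2.92 in WT and 2.89 in EKO), so none was counted as a duplicate.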

Additional observations from a re-analysis of the deposited data

Results flagged for a closer look

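SALL1 peak lists from microglia of the strains PWK and Spret entered no comparison of the report, and both held peaks in the EKO-list windows, where the EKO SALL1 list, of only 7 peaks, held 0 of 9045. PWK peaks overlapped 184 windows (2.03%), of which 116 also had a WT SALL1 peak, and Spret peaks overlapped 102 (1.13%), of which 68 did. Over all distal windows the shares were higher, 3.92% and 2.59%. These lists carry no replicate error.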

How the results depend on the processing

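The share of tags in EKO-list windows kept its direction in each alternative: the ratio of 1.70 became 2.33 with recovered depth as denominator and lay between 1.64 and 1.76 without single libraries. The median log2 change was 0.97 on values as deposited, where the median over all tested windows is 0.28 and 86.4% of all calls are gains (56.1% after quantile normalization). Gaining calls numbered 964 in the reported fit (9.22%) and 158 as deposited (0.814%). They were 417 with a mean above 32 tags (8.48%) and 856 with DESeq2 (7.76%). Brackets give the gaining share of all tested windows in the same fit. Losing calls, 30 in the reported fit, were 0 as deposited and 15 above 32 tags. They were 16 with DESeq2 (15 shared with the 30) and 16 with no level filter (14 shared). Over all tested windows the losing shares were 7.23%, 0.128%, 6.11%, 5.13% and 2.19% in the same order. Without single libraries, gaining calls ranged from 0 to 1109 and losing calls from 0 to 44 (19 and 18 with edgeR without the first EKO and the first WT library, 8 with limma without the second EKO). With limma the gaining calls were 0 without the first EKO or first WT library, 178 without the second EKO and 341 without the second WT, and with edgeR, a choice made after seeing the data, they were 815 to 1109. The deviations of same-numbered libraries from their genotype means correlated at 0.039 over tested windows. Such libraries share only a number. With the replicate block 988 EKO-list windows gained and 34 lost, against 9.54% and 7.60% of all tested windows. The PU1 nuclei difference of 22.6 points lay between 14.2 and 31.1 without single libraries. Peaks in the central 200 bp were found in 2.41% of windows for SALL1, 0.144% for WT SMAD4, 0.575% for labelled-mutant SMAD4 and 0.398% for p300, and counting only peaks scored at or above the median of their list in 3.46%, 0.708%, 0.829% and 1.39%. AP-1 letters were in 31.9% of whole windows and 6.65% of central 100 bp. These follow from the smaller or larger stretch or list. The cause of the other changes was not tested. The 48 named windows kept their direction in all 611 comparisons and their call in 430, with 28 calls lost as deposited, 5 with no level filter, 3 with DESeq2 (Sash1, Ccr2 and Tgfbr2), 1 with a pseudocount of 4 (Tgfbr2), all 48 with limma without the first EKO or the first WT library, 27 without the second EKO and 21 without the second WT. The level filter and the depth (9963452 tags in the shallowest library) leave 76.1% of the windows untested.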
